A study of Homo sapiens and Mus musculus with 41 samples.

Results

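The genes described here are 48 genes of the cell division cycle and of DNA replication. They were chosen by name from what their products do and not by their values, but with earlier results of these data known. All 48 were found among the 23368 genes of each human table and, by their mouse names, among the 23337 genes of the mouse table. They fall into 15 S phase genes (11 that load and fire replication origins or run at the fork, and 4 that supply nucleotides), 8 regulators of G1 and S phase, and 25 mitotic genes (8 for mitotic entry, 6 for the spindle checkpoint and anaphase, and 11 for chromosomes, centromeres and the spindle). RNA was sequenced from 41 libraries of cultured tumour cells in 4 models. HCC1954 is a human ductal breast carcinoma line with elevated HER2, MDA-MB-231 a human breast carcinoma line negative for the oestrogen and progesterone receptors and HER2, PC9 a human lung adenocarcinoma line with elevated EGFR, and LLC a mouse lung carcinoma line of C57/B6 origin. Each model had 4 stages: Lep, derivatives from the leptomeninges (the membranes and fluid space around the brain); Int, intermediate derivatives; BrM, brain metastatic derivatives; and Par, the parental line. HCC1954 had 3 Lep, 2 Int, 2 BrM and 3 Par libraries. MDA-MB-231 and PC9 each had 2 Lep, 2 Int, 3 BrM and 3 Par libraries, and LLC had 3 Lep, 2 Int, 3 BrM and 3 Par libraries. All cells carry stable GFP. Cells dislodged from the leptomeningeal space of mice with metastases were grown on plastic until only GFP-positive cells were seen and passaged 3 times, so the libraries describe growth in culture (DMEM for MDA-MB-231 and LLC, RPMI1640 for HCC1954 and PC9) and not growth in the meninges. Par replicates are technical, and Int and Lep replicates mix biological with technical ones without saying which is which, so p-values measure the spread between these libraries.

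A cell that commits to divide first builds up cyclin D and cyclin E with their kinases, which release E2F transcription factors from the retinoblastoma protein. E2F factors switch on the S phase genes: the licensing factors CDC6 and CDT1 load the MCM helicase onto origins, CDC45 and GINS activate it, PCNA clamps the polymerases, and TYMS, RRM1, RRM2 and TK1 supply deoxynucleotides. Later in the cycle, factors that include FOXM1 switch on mitotic genes such as cyclin B, CDK1 and the Aurora kinases, and the anaphase promoting complex with CDC20 ends mitosis. In bulk RNA a larger share of dividing cells and more RNA per dividing cell cannot be told apart.

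The promoters of these genes carry short motifs that are known to divide them into an S phase and a mitotic class, and 4 human promoters are shown because their genes lead results below. CENPA, the histone variant that marks centromeres, and CDC20 are mitotic. MCM7 and GINS2 are S phase genes that encode subunits of the active replicative helicase. CENPA and MCM7 lead the higher members in PC9 Lep cells, and CDC20 and GINS2 the lower members in MDA-MB-231 Int cells. Each line gives the 250 bases before the transcription start, 5′ to 3′ on the gene's strand, from RefSeq (GRCh38.p14, not the GRCh37 build of the files): chr2:26785806-26786055 on the plus strand for CENPA, chr1:43358731-43358980 on the plus strand for CDC20, chr7:100101398-100101647 on the minus strand for MCM7 and chr16:85688955-85689204 on the minus strand for GINS2. Capitals mark matches, on either strand, to the cell cycle homology region (TTTGAA and its variant TTCGAA), to the box named for its letters CCAAT, and to E2F type motifs (TTGGCGC and its variants TTCCCGC as well as TTCGCGC and finally TTGCCGC), with matches that overlap each other counted separately.
CENPA: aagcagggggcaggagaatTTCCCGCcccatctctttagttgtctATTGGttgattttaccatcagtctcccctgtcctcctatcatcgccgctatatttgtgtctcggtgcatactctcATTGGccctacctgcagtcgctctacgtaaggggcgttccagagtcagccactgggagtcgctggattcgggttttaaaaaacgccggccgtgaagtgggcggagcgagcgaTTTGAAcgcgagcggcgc
CDC20: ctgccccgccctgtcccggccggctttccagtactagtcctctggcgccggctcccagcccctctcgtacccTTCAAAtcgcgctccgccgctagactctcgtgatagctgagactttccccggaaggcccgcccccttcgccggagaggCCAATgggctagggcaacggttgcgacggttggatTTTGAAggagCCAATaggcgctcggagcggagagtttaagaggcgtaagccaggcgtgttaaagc
MCM7: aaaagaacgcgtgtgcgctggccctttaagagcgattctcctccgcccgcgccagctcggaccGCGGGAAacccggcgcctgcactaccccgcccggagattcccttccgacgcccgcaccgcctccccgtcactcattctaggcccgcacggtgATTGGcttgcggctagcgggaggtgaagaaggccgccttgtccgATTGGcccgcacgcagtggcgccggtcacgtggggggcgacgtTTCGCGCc
GINS2: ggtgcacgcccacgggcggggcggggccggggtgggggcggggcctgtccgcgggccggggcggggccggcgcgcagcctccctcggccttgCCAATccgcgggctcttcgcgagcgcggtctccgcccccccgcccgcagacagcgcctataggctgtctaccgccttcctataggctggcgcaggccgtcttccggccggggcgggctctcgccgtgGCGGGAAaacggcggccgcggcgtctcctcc

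CENPA held 1 match to the homology region, 2 CCAAT boxes and 1 E2F type motif, and CDC20 2, 2 and 0. MCM7 held 0 matches to the homology region, 2 CCAAT boxes and 2 E2F type motifs, and GINS2 0, 1 and 1. RefSeq windows of 300 bases (250 before and 50 after the start) were at hand for 37 of the 48 members. The homology region lay in 15 of 19 mitotic members (78.9%), 2 of 13 S phase members (15.4%) and 0 of 5 G1 and S regulators, against 19.5% of 27305 genes. E2F type motifs lay in 6 of 19 mitotic members (31.6%), 12 of 13 S phase members (92.3%) and 2 of 5 G1 and S regulators, against 15.3% of all genes. A CCAAT box together with the homology region lay in 14 of 19 mitotic members (73.7%), against 7.8% of all genes. Such matches describe these windows and do not show binding.

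Values are the deposited normalized counts: read counts divided by a size factor for each library. Recovered library totals spanned 25330801 to 67367833 reads for HCC1954 and 23508951 to 110830546 reads for MDA-MB-231. PC9 libraries held 16792027 to 38432963 reads, and those of LLC 18029707 to 67939274. An Int library was the deepest of each model. All 48 members passed the filter on low values in each model. A gene is said to have risen or fallen where limma's adjusted p (Benjamini-Hochberg over all genes tested in the model) was under 0.05, whatever the size of the change, and the count of changes of at least 2-fold is given beside it where it was not 0. Log2 fold changes are on the scale of log2(value + 1) and carry their standard error. The comparisons of a model share libraries, so they are set side by side and are not independent. Markers were set against the labels. ERBB2, which encodes HER2, averaged 146956 in Lep, 152777 in Int, 396722 in BrM and 58268 in Par cells of HCC1954. In MDA-MB-231, labelled negative for the progesterone and oestrogen receptors and for HER2, PGR reached at most 58.3 and ESR1 at most 19.3 in any library, while ERBB2 averaged 3179 in Lep, 3296 in Int, 3603 in BrM and 3303 in Par cells. EGFR, by which PC9 is labelled, averaged 1728 in Lep and 1731 in Int cells of PC9, against 13198 in BrM and 9436 in Par cells. In LLC the epithelial markers were mixed: of 4, EPCAM reached at most 2.56 and CDH1 at most 4.76 in any library, KRT8 averaged 2241 in Lep, 1812 in Int, 8510 in BrM and 3739 in Par cells, and KRT18 averaged 3206 in Lep, 9381 in Int, 10696 in BrM and 12872 in Par cells. The mesenchymal marker VIM was at 100302 or above in every LLC library.

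Across the models the members did not move as a block. In LLC, nearly all members were higher in Lep and BrM cells than in Par cells. Of all genes 23.6% rose in Lep and 25.3% in BrM cells. In HCC1954 most G1 and S phase genes were higher in all derivatives while the mitotic group split. All genes split too: 37.3% to 40.1% rose and 36.2% to 41.2% fell in the derivatives against Par cells. In PC9 Int cells the G1 and S regulators were lower beside higher mitotic genes, where 31.7% of all genes rose and 31.3% fell. In PC9 Lep cells 5 of the regulators fell. The mitotic genes split there, as did all genes, of which 32.1% rose and 32.2% fell. In MDA-MB-231, 0, 8 and 0 members passed in Lep, Int and BrM cells against Par cells. Of all genes 0.0199% rose and 0.0463% fell in Lep, 5.37% and 5.13% in Int and 0.391% and 0.139% in BrM cells. The members' log2 fold changes in Lep against Par cells had a median standard error of 0.21 in MDA-MB-231, against 0.03 in HCC1954, 0.07 in PC9 and 0.15 in LLC, so changes that passed in other models could miss the threshold in MDA-MB-231. Over the 15 S phase members, the median log2 difference from the Par mean lay between 0.80 and 1.01 for LLC Lep libraries and between 0.18 and 0.31 for those of HCC1954. It lay between -0.19 and 0.00 for PC9 Lep libraries and between -0.45 and -0.23 for those of MDA-MB-231. Over the 25 mitotic members the median was 0.60 to 0.73 for LLC Lep libraries and -0.14 to -0.05 for HCC1954 ones. Lep libraries of PC9 had mitotic medians of 0.03 and 0.08, and those of MDA-MB-231 -0.10 and -0.21. The tables were normalized separately, and no difference between models was tested.

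**Figure D1:**
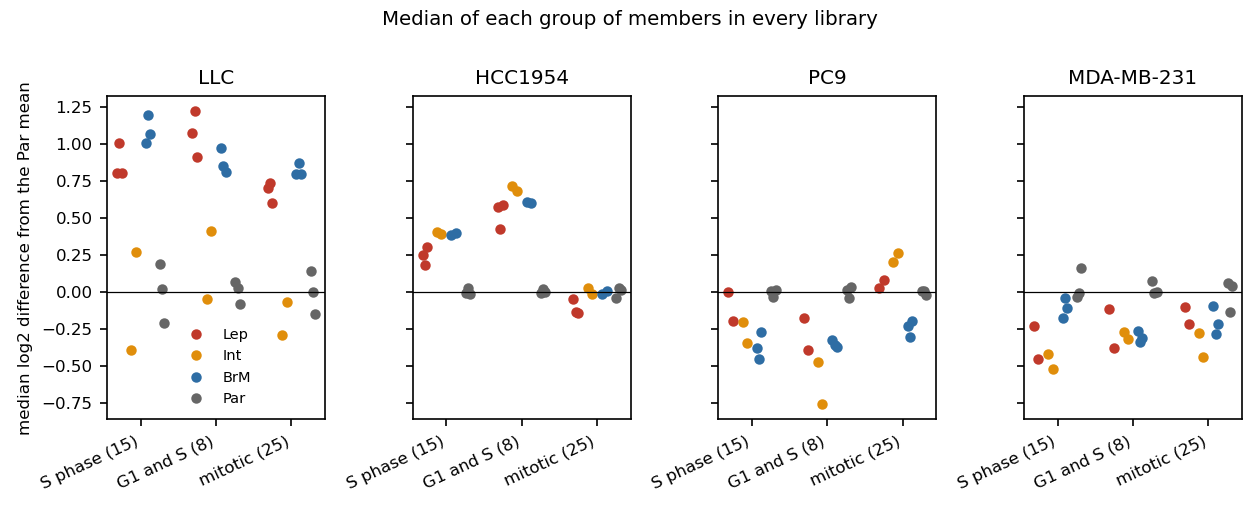
Median log2 difference from the Par mean (y axis) over the S phase, G1 and S, and mitotic members (x axis) in every library, with 1 panel per model and 1 point per library, coloured by stage. LLC Lep and BrM libraries lie from 0.60 to 1.22 in the 3 groups, above the LLC Int libraries, which lie from -0.39 to 0.41, and the Par libraries, which lie from -0.21 to 0.19.

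**Figure D2:**
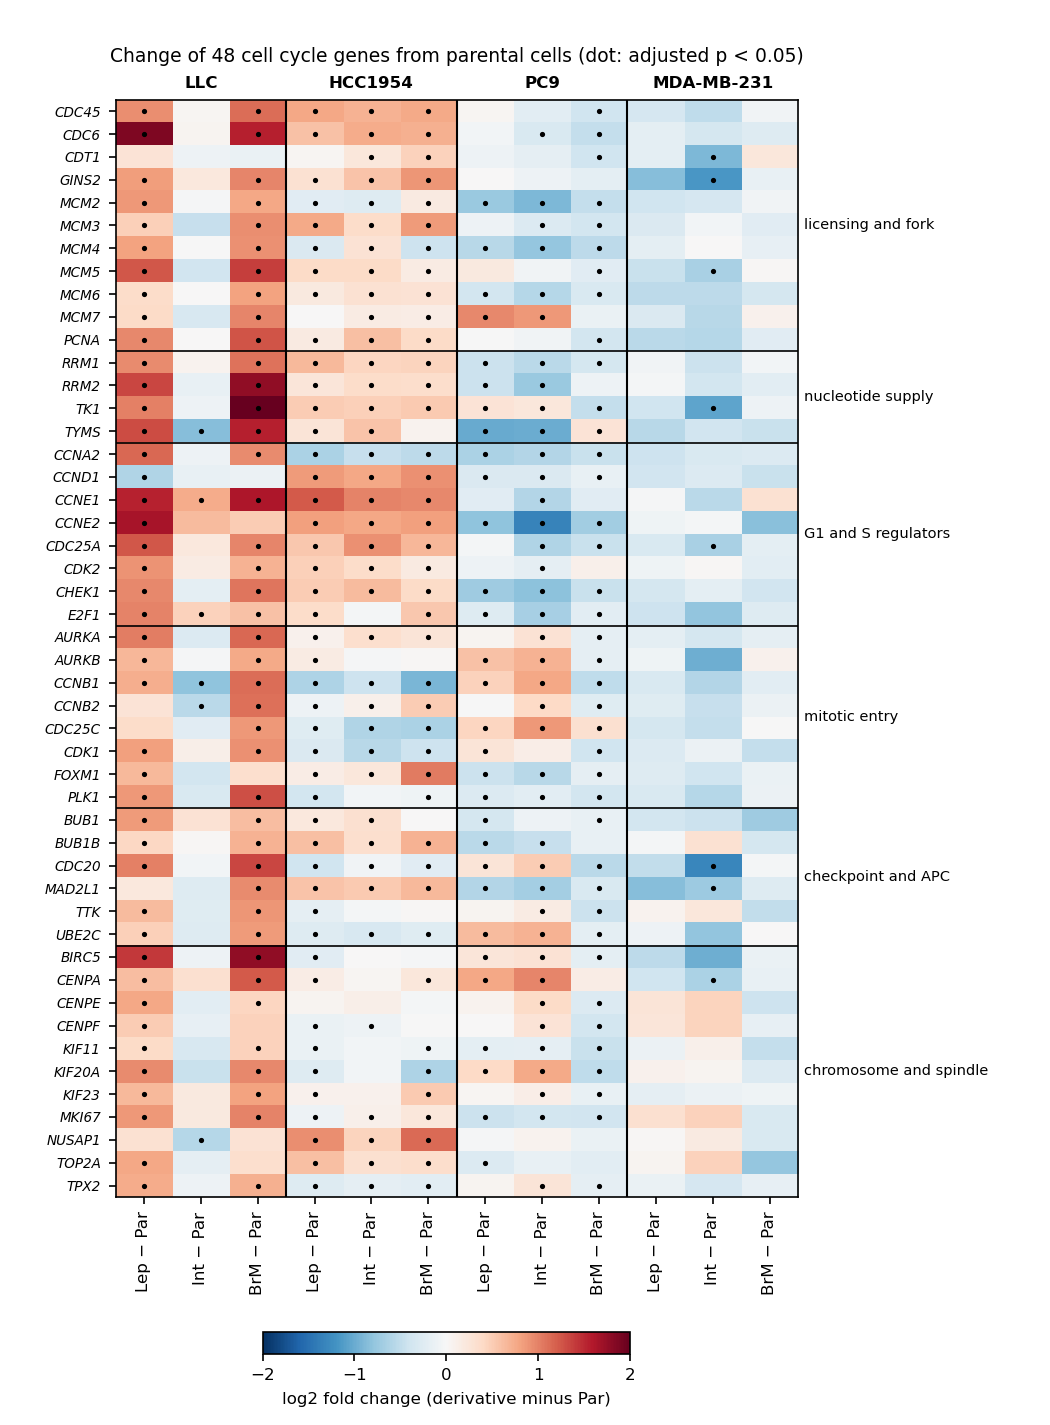
Log2 fold change of the 48 members (rows, grouped by role) in Lep, Int and BrM cells against Par cells of each model (columns), on a colour scale that ends at -2 and 2. A dot marks an adjusted p under 0.05, and the LLC Lep and BrM columns hold 43 and 41 dots while the MDA-MB-231 columns hold 0, 8 and 0.

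In LLC Lep cells, 42 of the 48 members rose over Par cells and 1 fell. Of the 13494 genes tested, 23.6% rose and 25.4% fell in the same comparison, and the median log2 fold change was 0.83 over the members and 0.00 over all genes. At least 2-fold higher were 12 members, against 8% of all genes. The rise took in 14 of 15 S phase genes, 7 of 8 G1 and S regulators and 21 of 25 mitotic genes. Leaving out any 1 library gave between 36 and 45 members past the threshold.

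Cdc6, the licensing factor that loads the MCM helicase, had the largest rise. Its normalized counts were 4124, 3897 and 3501 in Lep, 805 and 1476 in Int, 3114, 3085 and 3059 in BrM and 1234, 1077 and 879 in Par cells. The 3 Lep libraries lay above every other library, and the Int and Par libraries overlapped. This was a log2 fold change in Lep against Par cells of 1.86 ± 0.19 (limma adjusted p = 1.8e-05). The cyclins E, which drive cells from G1 into S phase with Cdk2, rose as well. Ccne1 had 2405, 2137 and 1752 in Lep, 977 and 1472 in Int, 2046, 2506 and 2056 in BrM and 716, 752 and 684 in Par cells. In Lep against Par cells its log2 fold change was 1.54 ± 0.17 (limma adjusted p = 2.5e-05). Every derivative library was above every Par library. Ccne2 had 941, 1003 and 709 in Lep, 320.1 and 587 in Int, 558, 253 and 439.6 in BrM and 304, 288 and 247 in Par cells. This gave a log2 fold change in Lep against Par cells of 1.65 ± 0.29 (limma adjusted p = 0.00066). The Lep libraries were the highest for Ccne2, and a BrM library lay within the Par range.

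Ccnd1, cyclin D1, which acts before cyclin E, was the member that fell in Lep cells. It had 17787, 13674 and 16205 in Lep, 18927 and 24886 in Int, 22282, 22145 and 22101 in BrM and 23775, 24757 and 23455 in Par cells. By limma the log2 fold change in Lep against Par cells was -0.60 ± 0.13, with an adjusted p of 0.0026. All 3 Lep libraries lay below all others. E2f1, the founding E2F factor, had 3163, 3581 and 3121 in Lep, 1959 and 2613 in Int, 2245, 2762 and 2389 in BrM and 1827, 1677 and 1445 in Par cells. The difference in Lep against Par cells came to 0.999 ± 0.14 on the log2 scale (limma adjusted p = 0.00015). The Lep libraries were the highest, and Int and BrM libraries also lay above Par libraries.

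All 4 nucleotide supply genes rose in Lep cells. Tyms, which makes thymidylate, had 3387, 2892 and 2974 in Lep, 502 and 947 in Int, 3303, 4279 and 3378 in BrM and 1416, 1273 and 1055 in Par cells. On the log2 scale the change in Lep against Par cells was 1.31 ± 0.21 (limma adjusted p = 0.00032). The Int libraries were below all others. Rrm2, the regulated subunit of ribonucleotide reductase, had 12129, 15699 and 10717 in Lep, 3310.0 and 6250.4 in Int, 17296, 17438 and 17034 in BrM and 5806, 5132 and 4267 in Par cells. As a log2 fold change in Lep against Par cells this was 1.33 ± 0.21 (limma adjusted p = 0.00033). Tk1, the salvage enzyme thymidine kinase, had 5106, 3111 and 6112 in Lep, 1687 and 2731 in Int, 8310.2, 11471 and 8633 in BrM and 2788, 2365 and 1824 in Par cells. The fitted log2 change in Lep against Par cells was 1.004 ± 0.26 (limma adjusted p = 0.0068). BrM libraries were highest for both Rrm2 and Tk1, and the Int libraries overlapped the Par libraries.

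At the origin and fork, 10 of 11 genes rose in Lep cells, and Cdt1 did not pass (0.27 on the log2 scale). Mcm2, a helicase subunit, had 10112, 14692 and 9882 in Lep, 4949 and 7612 in Int, 10739, 10388 and 10643 in BrM and 6603, 6275 and 5806 in Par cells. It was higher in Lep against Par cells, with a log2 fold change of 0.87 ± 0.17 (limma adjusted p = 0.0016). Pcna, the sliding clamp, had 9534, 8909.6 and 9188 in Lep, 3578 and 6325 in Int, 10551, 12807 and 10767 in BrM and 5534, 4825 and 3976 in Par cells. Limma put the log2 fold change in Lep against Par cells at 0.96 ± 0.19 (adjusted p = 0.0013). Lep and BrM libraries were above all Par libraries for both genes, and for both the lower Int library lay below the Par range while the other Int library lay above it.

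Among the mitotic genes 3 of 25 were at least 2-fold higher in Lep cells, against 8% of all genes. Birc5 (survivin), which guides the Aurora B kinase to centromeres, had 7829.5, 5553 and 7232 in Lep, 2008 and 2809 in Int, 7458, 11412 and 7809.9 in BrM and 2806, 2588 and 2293 in Par cells. This was a log2 fold change in Lep against Par cells of 1.41 ± 0.19 (limma adjusted p = 0.0001). Cdk1, the kinase of mitotic entry, had 8766, 9642 and 8411 in Lep, 4826 and 6238 in Int, 8768, 11242 and 8779.6 in BrM and 5772, 5242 and 4280.1 in Par cells. In Lep against Par cells its log2 fold change was 0.82 ± 0.15 (limma adjusted p = 0.00086). Mki67, the chromosome surface protein stained as Ki-67, had 22276, 15749 and 15235 in Lep, 10043 and 12075 in Int, 22779, 14763 and 20929 in BrM and 11087, 9272 and 8652 in Par cells. This gave a log2 fold change in Lep against Par cells of 0.86 ± 0.19 (limma adjusted p = 0.0028). Lep and BrM libraries were above Par libraries for these 3 genes. Ccnb2, Cdc25c, Mad2l1 and Nusap1 were the 4 mitotic genes that did not pass, with log2 fold changes of 0.28, 0.36, 0.21 and 0.30.

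**Figure D3:**
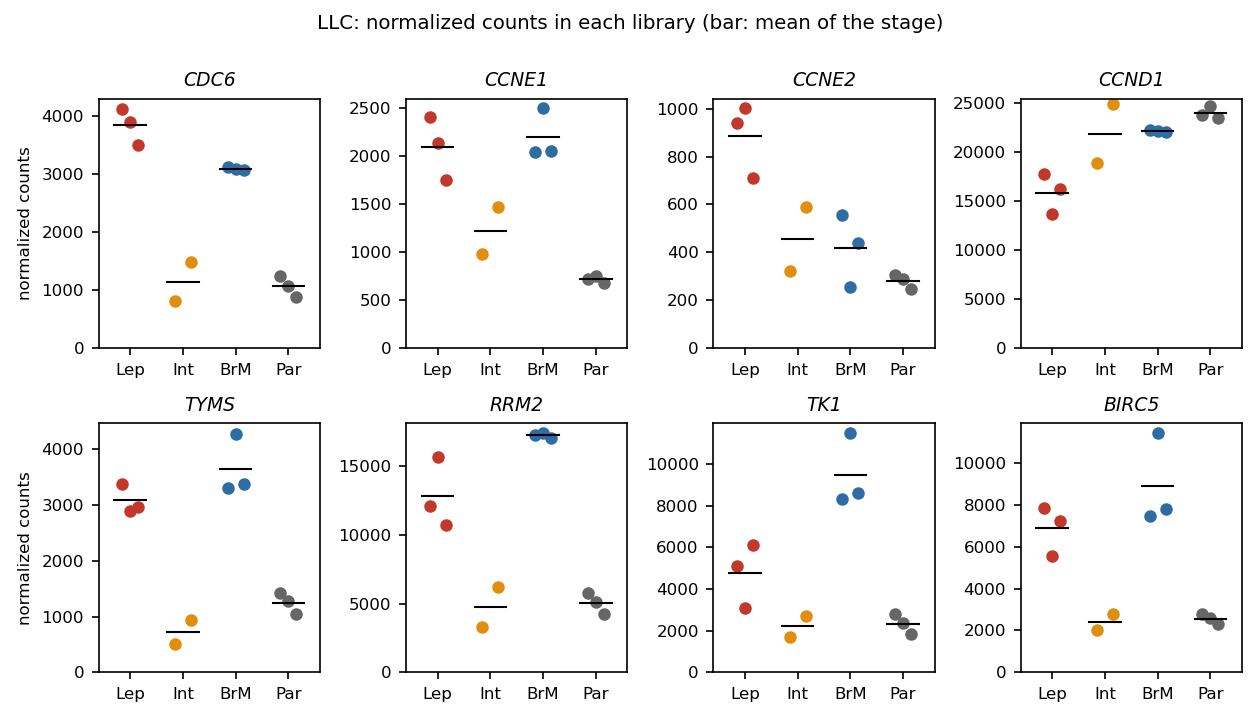
Normalized counts of 8 members in every LLC library (points) by stage, with the mean of the stage as a bar and axes that start at 0. Lep and BrM points lie above Par points for Cdc6, Ccne1, Tyms, Rrm2, Tk1 and Birc5, Ccne2 is highest in Lep cells (709 to 1003), and Ccnd1 is lowest there (13674 to 17787).

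In LLC BrM cells, 41 members rose and 0 fell against Par cells, where 25.3% of all genes rose and 28.9% fell. The 0 held at an unadjusted p under 0.05 and in edgeR and DESeq2. At least 2-fold higher were 17 members, against 8.14% of all genes, and the median log2 fold change was 0.93. Tk1 changed by 2.03 ± 0.26 on the log2 scale (limma adjusted p = 6.7e-05). For Rrm2 the log2 fold change was 1.78 ± 0.21 (limma adjusted p = 4.6e-05). The helicase subunit Mcm5 (1.38 on the log2 scale) and the mitotic kinase Plk1 (1.29) rose too, both with all BrM libraries above all Par libraries. Ccnd1 (-0.11), Cdt1 (-0.13), Ccne2 (0.51), Foxm1 (0.33), Top2a (0.34), Cenpf (0.46) and Nusap1 (0.30) did not pass.

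LLC Int cells differed from Par cells in few members. Against Par cells 2 members rose and 4 fell, where 13.1% of all genes rose and 12.2% fell, and the median log2 fold change was -0.10. Ccne1 had a log2 fold change of 0.74 ± 0.19, with a limma adjusted p of 0.013. E2f1 was higher, at 0.46 ± 0.16 on the log2 scale (limma adjusted p = 0.05). That p was under the threshold before rounding. Tyms changed by -0.84 ± 0.23 on the log2 scale (limma adjusted p = 0.019). For Ccnb1 the log2 fold change was -0.81 ± 0.14 (limma adjusted p = 0.0019). Ccnb1, cyclin B1, had 4832, 4655 and 3801 in Lep, 1320.4 and 1733 in Int, 5616, 6102 and 5659.9 in BrM and 2769, 2569 and 2633 in Par cells, and its Int libraries were below all others. The 2 Int libraries differed: their medians over all S phase members were -0.39 and 0.27 from the Par mean. Without Int replicate 1 the count was 3, with 2 higher and 1 lower, and without Par replicate 1 or Par replicate 2 it was 2. E2f1 lost its call when any 1 of 8 libraries was left out, Tyms without Par replicate 1, Par replicate 2 or Int replicate 1, and Ccne1 without Int replicate 2.

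Lep cells set against Int cells of LLC gave 45 members higher and 1 lower, against 22.6% and 25.4% of all genes, with a median of 0.87. At least 2-fold higher were 16 members, against 8.47% of all genes. Tyms had a log2 fold change of 2.16 ± 0.23, with a limma adjusted p of 2.5e-05. Cdc6 was higher, at 1.81 ± 0.22 on the log2 scale (limma adjusted p = 5.4e-05). Ccnd1 changed by -0.46 ± 0.15 on the log2 scale (limma adjusted p = 0.022). This count leaned on Int replicate 1, the lower of the Int libraries: without it 28 members were higher and 1 lower, and Mki67, Pcna, Mcm2, Ccne2, Cdk1 and E2f1 no longer passed. Ccnd1 lost its call without Int replicate 2 or Lep replicate 2. Int libraries were also the deepest of the model, with 67939274 and 67198962 reads against 18029707 to 52876610 in the others, and the part of depth in the result was not tested.

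Lep cells and BrM cells of LLC differed in 16 members, 4 higher and 12 lower in Lep cells, where 23.5% of all genes were higher and 22.7% lower. At least 2-fold higher was Ccne2, against 11.1% of all genes, and at least 2-fold lower was Tk1, against 6.85%. For Ccne2 the log2 fold change was 1.14 ± 0.29 (limma adjusted p = 0.007). Tk1 had a log2 fold change of -1.03 ± 0.26, with a limma adjusted p of 0.0065. Ccnb2 was lower, at -0.83 ± 0.14 on the log2 scale (limma adjusted p = 0.00081). Ccnb2, cyclin B2, had 4584, 4361 and 4969.6 in Lep, 2572 and 2718 in Int, 7463, 9650.2 and 7698 in BrM and 4458, 4027 and 3119.7 in Par cells. Top2a, the topoisomerase that untangles chromosomes, had 41432, 34384 and 42487 in Lep, 18749.8 and 22042 in Int, 31731, 24909 and 31243 in BrM and 25655, 22894 and 20798 in Par cells. By limma the log2 fold change in Lep against BrM cells was 0.43 ± 0.14, with an adjusted p of 0.027. Top2a no longer passed without BrM replicate 2, Lep replicate 1 or Lep replicate 3.

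In the wider pathway of LLC, of 51 further replication genes 43 rose and 1 fell in Lep cells against Par cells, and of 53 further mitosis genes 37 rose and 1 fell, where 23.6% of all genes rose and 25.4% fell. Orc1, the origin recognition subunit, averaged 1517 ± 384 in Lep and 289 ± 30.6 in Par cells (SD). Mybl2, a factor of the complex that turns on mitotic genes, averaged 4894 ± 511 in Lep and 1541 ± 51.4 in Par cells (SD). Of 15 tested inhibitors and brakes 3 rose and 6 fell, and no test set this list apart from all genes. Cdkn1a (p21), which blocks cyclin kinases, averaged 2696 ± 991 in Lep and 9133 ± 391 in Par cells (SD). Gadd45a, a stress gene that also slows the cycle, averaged 678 ± 598 in Lep and 5920.4 ± 917 in Par cells (SD). Cdkn1a averaged 20289 ± 2229 in Int and 9133 ± 391 in Par cells (SD). Of these 3 stages it was lowest in Lep and highest in Int cells, while Gadd45a varied widely among the Lep libraries.

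LLC cells and their host are both of the mouse, so host transcripts would be counted in the same table. The summed level of 6 macrophage and microglia genes ran from 134.2 to 296.5 in Lep, from 5230.2 to 5609.9 in Int, from 187.7 to 199.1 in BrM and from 203.1 to 242.5 in Par libraries. In Int libraries CD68 alone averaged 5372, while PTPRC averaged 3.04, CSF1R 0.281, AIF1 0.555 and ITGAM 1.11 there. CX3CR1 averaged 43.1 in Int cells, against 1.73 in Par cells. In Lep cells CSF1R averaged 16.9 and PTPRC 10.6, against 0.221 and 0.458 in Par cells. Their highest Lep values were 48.6 for CSF1R and 21.7 for PTPRC, so the CSF1R mean rested mostly on 1 library. The 6 fibroblast and pericyte genes summed to 1546.5 to 3283.4 in Lep, 3543.3 to 6062.6 in Int, 873.3 to 1161.8 in BrM and 4292.7 to 4632.6 in Par libraries. The part of these genes in the results was not tested.

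In HCC1954 Lep cells, 28 members rose and 17 fell against Par cells, where 40.1% of the 15561 genes tested rose and 41.2% fell. A 2-fold rise was seen in 1 member, against 13% of all genes, so most changes were small, with a median of 0.16. Of 15 S phase genes 11 rose and 2 fell, of 8 G1 and S regulators 7 rose and 1 fell, and of 25 mitotic genes 10 rose and 14 fell, and the difference between the phases was not tested. Leaving out any 1 library gave between 42 and 45 members past the threshold.

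All 3 G1 cyclins among the members rose in HCC1954 derivatives. CCND3, a cyclin D that is not a member, was lower in each derivative than in Par cells. With a correction for transcript length and GC content, its log2 fold change was -0.821 in Lep, -0.682 in Int and -0.841 in BrM cells. CCNE1 had 1806, 1809 and 1876 in Lep, 1544 and 1538 in Int, 1581 and 1443 in BrM and 806, 799 and 730.0 in Par cells. The difference in Lep against Par cells came to 1.23 ± 0.05 on the log2 scale (limma adjusted p = 2.9e-11). CCNE2 had 2065, 2064 and 2344 in Lep, 2102 and 2073 in Int, 2128 and 2164 in BrM and 1176, 1243 and 1228 in Par cells. On the log2 scale the change in Lep against Par cells was 0.82 ± 0.05 (limma adjusted p = 1.6e-09). CCND1 had 75231, 71922 and 74096 in Lep, 69126 and 70187 in Int, 76908 and 77396 in BrM and 41148, 40406 and 40844 in Par cells. As a log2 fold change in Lep against Par cells this was 0.85 ± 0.03 (limma adjusted p = 3.1e-12). For each of the 3 genes every derivative library was above every Par library. CCNE1 was highest in Lep cells, whereas the derivative stages overlapped for CCNE2. E2F1 had 1755, 1676 and 1763 in Lep, 1313 and 1324 in Int, 1956 and 1969.9 in BrM and 1404, 1362 and 1282 in Par cells. The fitted log2 change in Lep against Par cells was 0.36 ± 0.04 (limma adjusted p = 1.5e-06). Its Int libraries overlapped the Par libraries.

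Among replication genes the changes were unequal. CDC45, which joins the MCM ring in the active helicase, rose in Lep cells (0.78), as did MCM3 (0.76), RRM1 (0.65) and CDC6 (0.59). PCNA had 7533, 7369 and 7679 in Lep, 10297 and 10008 in Int, 8644 and 8754 in BrM and 6473, 6808 and 6687 in Par cells. It was higher in Lep against Par cells, with a log2 fold change of 0.18 ± 0.03 (limma adjusted p = 4.5e-05). MCM2 had 4180.4, 3914 and 4373 in Lep, 4117 and 3991 in Int, 5497 and 5509 in BrM and 4720.1, 4843 and 4939 in Par cells. Limma put the log2 fold change in Lep against Par cells at -0.22 ± 0.04 (adjusted p = 9.9e-05). MCM4, another subunit of the same ring, had 8023, 7658 and 8585 in Lep, 12334 and 11698 in Int, 7632 and 7194 in BrM and 9649, 10148 and 9843 in Par cells. This was a log2 fold change in Lep against Par cells of -0.29 ± 0.04 (limma adjusted p = 1.8e-05). The Int libraries were highest for PCNA and MCM4, and the BrM libraries were highest for MCM2.

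Cyclins A and B and other mitotic factors fell in Lep cells. CCNA2, cyclin A2, which is active in S phase and G2 and is counted here with the G1 and S regulators, had 2928, 2853 and 2840.3 in Lep, 3221 and 3212 in Int, 3079 and 3141 in BrM and 4297, 4528 and 4528 in Par cells. In Lep against Par cells its log2 fold change was -0.63 ± 0.03 (limma adjusted p = 2.2e-10). CCNB1 had 6657, 6699 and 6608 in Lep, 7849 and 7448 in Int, 5377 and 5403 in BrM and 9909.6, 10410.2 and 10309.7 in Par cells. This gave a log2 fold change in Lep against Par cells of -0.62 ± 0.03 (limma adjusted p = 1.6e-10). CDK1, its partner, had 5202, 5169 and 4832 in Lep, 4219 and 4179 in Int, 4703 and 4593 in BrM and 5859.8, 6195 and 6498 in Par cells. By limma the log2 fold change in Lep against Par cells was -0.29 ± 0.04, with an adjusted p of 1.2e-05. Par libraries were the highest for these 3 genes. CDC20 had 5841, 5887 and 5752 in Lep, 7388 and 7339 in Int, 6548 and 6694 in BrM and 7718, 7782 and 7659.8 in Par cells. The difference in Lep against Par cells came to -0.41 ± 0.02 on the log2 scale (limma adjusted p = 2e-09). PLK1 had 4626, 4433 and 4452 in Lep, 5659 and 5554 in Int, 5501 and 5456 in BrM and 5744, 5881 and 5847 in Par cells. On the log2 scale the change in Lep against Par cells was -0.37 ± 0.03 (limma adjusted p = 1.5e-08). For CDC20 and PLK1 the Lep libraries were the lowest.

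Other mitotic genes rose in the same cells. NUSAP1, which bundles spindle microtubules, had 11819, 11045 and 10792 in Lep, 7986 and 7993 in Int, 12621 and 13314 in BrM and 5835, 5938 and 5897 in Par cells. As a log2 fold change in Lep against Par cells this was 0.93 ± 0.03 (limma adjusted p = 1.6e-11). TOP2A (0.60), BUB1B (0.60) and MAD2L1 (0.57), the last 2 being spindle checkpoint proteins, rose with it. MKI67 had 23484, 21899 and 22211 in Lep, 26261 and 25369 in Int, 27661 and 28414 in BrM and 23108, 24412 and 24670.1 in Par cells. The fitted log2 change in Lep against Par cells was -0.10 ± 0.03 (limma adjusted p = 0.019). Lep and Par libraries overlapped for MKI67, and the call was lost when any 1 of Par replicate 2, Par replicate 3, Lep replicate 2 or Lep replicate 3 was left out.

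**Figure D4:**
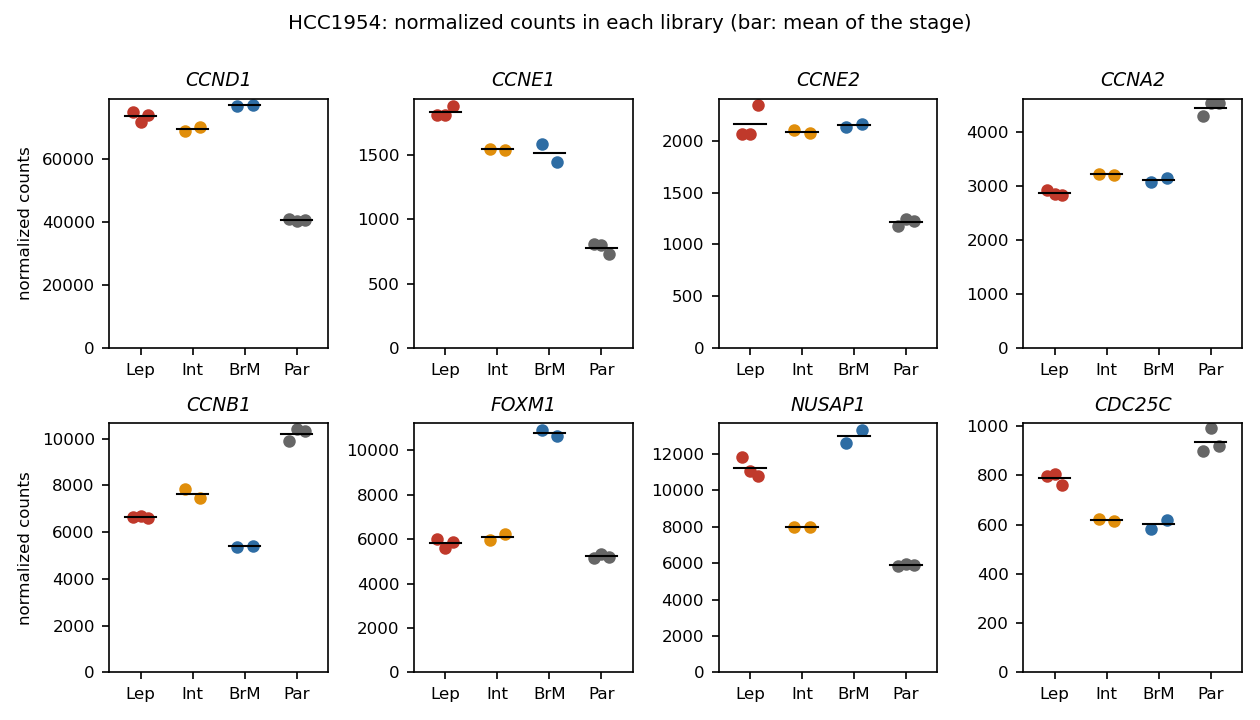
Normalized counts of 8 members in every HCC1954 library (points) by stage, with the mean of the stage as a bar and axes that start at 0. CCND1, CCNE1, CCNE2 and NUSAP1 are higher in all derivative libraries than in Par libraries, CCNA2, CCNB1 and CDC25C are lower, and FOXM1 is highest in BrM libraries (10644 and 10938).

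Int cells of HCC1954 had 29 members higher and 9 lower than Par cells, where 38.1% of all genes were higher and 36.2% lower. The median was 0.25 over the members, with 14 of 15 S phase genes higher. With quantile normalization, which moved the median of all genes to 0.12, the split was 26 higher and 14 lower. CCNE1 changed by 0.99 ± 0.05 on the log2 scale (limma adjusted p = 1.6e-09). For CDC25A the log2 fold change was 0.91 ± 0.06 (limma adjusted p = 1.4e-08). CDC25A, the phosphatase that activates CDK2, had 1829, 1592 and 1911 in Lep, 2295 and 2286 in Int, 1960.1 and 1924 in BrM and 1204, 1213 and 1245 in Par cells. CDK1 had a log2 fold change of -0.56 ± 0.04, with a limma adjusted p of 6.4e-08. CDC25C was lower, at -0.59 ± 0.06 on the log2 scale (limma adjusted p = 6e-07). CDC25C, the phosphatase that activates CDK1, had 797, 807 and 763 in Lep, 624 and 615 in Int, 583 and 619.8 in BrM and 898, 992 and 921 in Par cells.

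BrM cells of HCC1954 had 30 members higher and 11 lower than Par cells, where 37.3% of all genes were higher and 39.4% lower, with a median of 0.25. A 2-fold rise was seen in 2 members, against 9.63% of all genes. NUSAP1 changed by 1.14 ± 0.04 on the log2 scale (limma adjusted p = 1.1e-11). FOXM1, the factor for mitotic genes, had 6004, 5611 and 5878 in Lep, 5980.2 and 6216 in Int, 10938 and 10644 in BrM and 5136, 5347 and 5221 in Par cells. It was higher in BrM against Par cells, with a log2 fold change of 1.04 ± 0.04 (limma adjusted p = 1.2e-11). For CCNB1 the log2 fold change was -0.92 ± 0.03 (limma adjusted p = 1.5e-11). CDC25C had a log2 fold change of -0.64 ± 0.06, with a limma adjusted p of 2.5e-07. CCNB1 had the largest fall of the members in BrM cells, where FOXM1 rose.

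Lep cells of HCC1954 differed from Int cells in 34 members, 11 higher and 23 lower, where 35.1% of all genes were higher and 33.1% lower. NUSAP1 was higher, at 0.49 ± 0.04 on the log2 scale (limma adjusted p = 8.7e-08). E2F1 changed by 0.39 ± 0.04 on the log2 scale (limma adjusted p = 3.5e-06). For MCM4 the log2 fold change was -0.57 ± 0.05 (limma adjusted p = 1.3e-07). PCNA had a log2 fold change of -0.43 ± 0.03, with a limma adjusted p of 4.5e-08. Against BrM cells, 14 members were higher and 23 lower in Lep cells, where 33.9% of all genes were higher and 32.9% lower, and quantile normalization gave 10 higher and 27 lower. CDC25C was higher, at 0.39 ± 0.06 on the log2 scale (limma adjusted p = 4.3e-05). KIF20A changed by 0.35 ± 0.04 on the log2 scale (limma adjusted p = 8.2e-06). KIF20A is a kinesin of cytokinesis. For FOXM1 the log2 fold change was -0.89 ± 0.04 (limma adjusted p = 1.1e-10). CCNB2 had a log2 fold change of -0.60 ± 0.04, with a limma adjusted p of 1.2e-08.

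In the wider pathway of HCC1954 Lep cells against Par cells, 30 of 51 replication genes rose and 15 fell, and 22 of 54 mitosis genes rose and 23 fell, where 40.1% of all genes rose and 41.2% fell. Of 19 tested G1 cyclins, kinases and E2F factors 10 rose and 8 fell. E2F2 averaged 1734 ± 47.4 in Lep and 785 ± 27.7 in Par cells (SD). CDC25B averaged 17754 ± 313 in Lep and 8091 ± 73.1 in Par cells (SD). E2F5, a repressor E2F, averaged 8.09 ± 1.44 in Lep and 214 ± 14.1 in Par cells (SD). Of 18 inhibitors and brakes 9 rose and 8 fell. CDKN1A averaged 3793 ± 126 in Lep and 1582 ± 28.5 in Par cells (SD), and CDKN1B (p27) averaged 1005 ± 29.2 in Lep and 2285 ± 63.6 in Par cells (SD). The 2 inhibitors of cyclin kinases moved in opposite directions.

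In PC9 Lep cells, 11 members rose and 19 fell against Par cells, where 32.1% of the 14475 genes tested rose and 32.2% fell. The median log2 fold change was -0.05, and at least 2-fold lower was 1 member, against 8.49% of all genes. Of 8 G1 and S regulators 0 rose and 5 fell, of 15 S phase genes 2 rose and 6 fell, and of 25 mitotic genes 9 rose and 8 fell. In PC9 the levels of genes moved with transcript length: across genes within a library, the Spearman correlation of a gene's deviation from its mean with its transcript length ran from -0.49 to -0.39 in Lep, from -0.50 to -0.45 in Int, from 0.28 to 0.42 in BrM and from 0.35 to 0.38 in Par libraries. Short transcripts were thus higher and long ones lower in Lep and Int libraries. Corrected values are given beside the log2 fold changes printed for members in Lep and Int cells against Par cells and in Lep against BrM cells. For named members in BrM against Par cells only values as deposited are given. With a correction for transcript length and GC content, 13 members rose and 21 fell, with 0 and 6 of the G1 and S regulators, 2 and 9 of the S phase genes and 11 and 6 of the mitotic genes.

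TYMS had the largest fall. It had 265 and 272 in Lep, 292 and 249 in Int, 627, 634 and 698 in BrM and 537, 522 and 559 in Par cells. Limma put the log2 fold change in Lep against Par cells at -1.004 ± 0.09 (adjusted p = 1.3e-06). All Lep and Int libraries were below all BrM and Par libraries, and with the correction the log2 fold change was -1.28. The gene overlaps ENOSF1 on the other strand, and the library kit does not keep the strand. CCNE2 had 563 and 585 in Lep, 422 and 373 in Int, 672, 595 and 595 in BrM and 1065, 915 and 1041 in Par cells. This was a log2 fold change in Lep against Par cells of -0.81 ± 0.09 (limma adjusted p = 8.4e-06). MCM2 had 4202 and 3791 in Lep, 3970.0 and 3262 in Int, 4780.1, 4578 and 5009 in BrM and 6604, 6829 and 6653 in Par cells. In Lep against Par cells its log2 fold change was -0.75 ± 0.08 (limma adjusted p = 4.2e-06). CHEK1, the checkpoint kinase of stalled forks, had 585 and 552 in Lep, 548 and 509 in Int, 712, 658 and 692 in BrM and 939, 904 and 955 in Par cells. This gave a log2 fold change in Lep against Par cells of -0.71 ± 0.07 (limma adjusted p = 3.4e-06). Par libraries were the highest for CCNE2, MCM2 and CHEK1, and with the correction the values were -0.69, -0.84 and -0.46.

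MCM7 went the other way from MCM2, another subunit of the same helicase ring. It had 10175 and 9585 in Lep, 9530.1 and 8930.2 in Int, 4364, 4470.3 and 5069 in BrM and 5044, 5033 and 5121 in Par cells. By limma the log2 fold change in Lep against Par cells was 0.96 ± 0.07, with an adjusted p of 1.6e-07. All Lep and Int libraries were above all BrM and Par libraries, and with the correction the value was 0.80. MCM7 overlaps AP4M1 on the other strand. PCNA had 8019.8 and 7399.6 in Lep, 7099 and 7555 in Int, 5931, 5563 and 6420.3 in BrM and 7874, 7507 and 7786 in Par cells, and its log2 fold change in Lep cells was 0.00 and did not pass, whereas the corrected value was -0.31. E2F1 had 2352 and 1923 in Lep, 1734 and 1494 in Int, 2108, 2144 and 2337 in BrM and 2574, 2489 and 2577 in Par cells. The difference in Lep against Par cells came to -0.26 ± 0.09 on the log2 scale (limma adjusted p = 0.021). CCND1 had 10013 and 8918 in Lep, 9862 and 9064 in Int, 10419, 10319 and 10628 in BrM and 11633, 11511 and 11586 in Par cells. On the log2 scale the change in Lep against Par cells was -0.29 ± 0.06 (limma adjusted p = 0.0012). Both were below Par libraries in all Lep libraries, and the corrected value of E2F1 was -0.63. E2F1 no longer passed without Par replicate 1, Par replicate 3 or Lep replicate 2, and CCND1 did not pass with the correction (-0.10).

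Several mitotic genes were higher in Lep and Int cells of PC9. CENPA had 1229 and 1372 in Lep, 1450.4 and 1546 in Int, 896, 859 and 799.6 in BrM and 760.4, 738 and 793 in Par cells. As a log2 fold change in Lep against Par cells this was 0.77 ± 0.08 (limma adjusted p = 2.4e-06). UBE2C, the ubiquitin enzyme of the anaphase promoting complex, had 9788 and 8846 in Lep, 9421 and 10004 in Int, 5025, 4942 and 5808 in BrM and 6072, 6196 and 5752 in Par cells. The fitted log2 change in Lep against Par cells was 0.63 ± 0.08 (limma adjusted p = 1.2e-05). AURKB, the Aurora kinase at centromeres, had 3569 and 3477 in Lep, 3747 and 3835 in Int, 1952, 2076 and 2177 in BrM and 2311, 2359.8 and 2367 in Par cells. It was higher in Lep against Par cells, with a log2 fold change of 0.59 ± 0.06 (limma adjusted p = 2.6e-06). Lep and Int libraries were above all Par libraries for these 3 genes. With the correction CENPA stayed higher at 0.46, UBE2C was at 0.16 and AURKB, at 0.08, did not pass. CDK1 had 8078 and 8500.4 in Lep, 7122 and 8082 in Int, 5417, 5067 and 5245 in BrM and 7151, 6646 and 6977 in Par cells. Limma put the log2 fold change in Lep against Par cells at 0.26 ± 0.07 (adjusted p = 0.0039). It did not pass with the correction (0.10).

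Of the 48 members 10 changed sign with the correction. MKI67, whose transcript of 12678 bases is the longest among the members, had 8062 and 7005 in Lep, 8013 and 7713 in Int, 8092, 7455 and 7649 in BrM and 9685, 10025 and 10573 in Par cells. This was a log2 fold change in Lep against Par cells of -0.42 ± 0.07 (limma adjusted p = 0.00015). The corrected value was 0.30, with a limma adjusted p of 0.0014. CDC20, with a transcript of 1777 bases, had 7494 and 6559.6 in Lep, 8494 and 8258 in Int, 3890.5, 3891 and 4388 in BrM and 5710.2, 5974 and 5963 in Par cells. Its log2 fold change in Lep cells was 0.25 and its corrected value -0.19. TK1, with 1681 bases, had 0.27 and -0.28. The direction of MKI67, CDC20 and TK1 in PC9 Lep cells therefore hung on the correction. CENPE and CENPF, both long, did not pass as deposited (0.06 and 0.01) and rose with the correction (0.70 and 0.74).

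**Figure D5:**
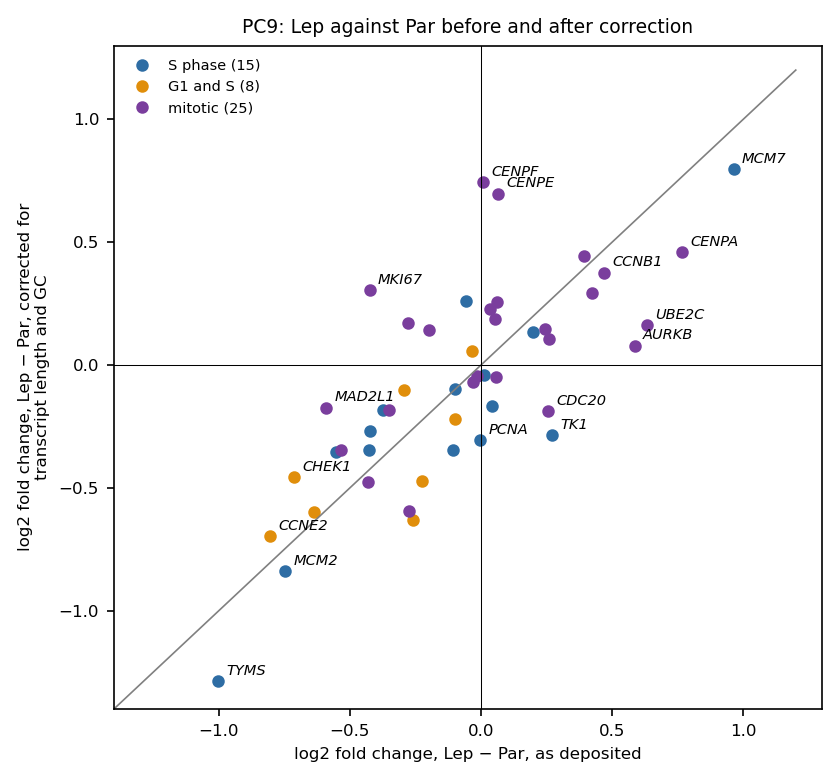
Log2 fold change of each member in PC9 Lep cells against Par cells as deposited (x axis) and after correction for transcript length and GC content (y axis), with 1 point per member coloured by phase and the line of equal values in grey. MKI67, CDC20 and TK1 change sign, whereas MCM7, CENPA, TYMS, CCNE2 and MCM2 keep theirs.

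Int cells of PC9 had 17 members higher and 22 lower than Par cells, where 31.7% of all genes were higher and 31.3% lower, with a median of -0.16. At least 2-fold lower was 1 member, CCNE2, against 7.71% of all genes. All 8 G1 and S regulators fell, as did 8 of 15 S phase genes, while 15 of 25 mitotic genes rose. With the correction 7 of 8 G1 and S regulators and 11 of 15 S phase genes fell, 16 of 25 mitotic genes rose, and 6 members changed sign. CENPA was higher, at 0.97 ± 0.08 on the log2 scale (limma adjusted p = 3.6e-07). MCM7 changed by 0.86 ± 0.07 on the log2 scale (limma adjusted p = 3.7e-07). For CCNE2 the log2 fold change was -1.34 ± 0.09 (limma adjusted p = 1.5e-07). TYMS had a log2 fold change of -0.99 ± 0.09, with a limma adjusted p of 1.5e-06. With the correction these 4 stood at 0.65 for CENPA, 0.71 for MCM7, -1.27 for CCNE2 and -1.29 for TYMS. With it PCNA passed as lower (-0.394), CCND1 no longer passed (-0.103) and MKI67 turned from lower to higher (0.345). CCNB1 had 10049 and 9381 in Lep, 11532 and 12614 in Int, 4914, 4786 and 5125 in BrM and 7155, 7101 and 6805 in Par cells, and it was highest in the Int libraries.

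BrM cells of PC9 had 2 members higher and 37 lower than Par cells, where 21.5% of all genes were higher and 23.8% lower. The median was -0.29 against -0.03 over all genes, and no member passed 2-fold. The falls took in 11 of 15 S phase genes, 6 of 8 regulators and 20 of 25 mitotic genes, and leaving out any 1 library gave between 28 and 46 members past the threshold. With the correction 4 members rose and 35 fell, and 0 changed sign. CCNE2 was lower, at -0.70 ± 0.08 on the log2 scale (limma adjusted p = 3e-05). CDC20 changed by -0.54 ± 0.06 on the log2 scale (limma adjusted p = 2.8e-05). For CDC25C the log2 fold change was 0.33 ± 0.08 (limma adjusted p = 0.0035). TYMS had a log2 fold change of 0.28 ± 0.08, with a limma adjusted p of 0.017. CDC25C had 984 and 944 in Lep, 1191 and 1432 in Int, 943, 851 and 917 in BrM and 698, 741 and 718 in Par cells, and Par libraries were the lowest. TYMS no longer passed without BrM replicate 3, Par replicate 1 or Par replicate 2.

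Lep cells of PC9 differed from Int cells in few members, with 4 members higher and 4 lower, where 1.17% of all genes were higher and 1.54% lower. CDC25A was higher, at 0.57 ± 0.12 on the log2 scale (limma adjusted p = 0.026). CCNE2 changed by 0.53 ± 0.10 on the log2 scale (limma adjusted p = 0.02). For CDC25C the log2 fold change was -0.44 ± 0.09 (limma adjusted p = 0.031). CCNB2 had a log2 fold change of -0.41 ± 0.09, with a limma adjusted p of 0.032. The count was 0 without Int replicate 2 and 19 without Lep replicate 2, so single libraries decided it, and CDC25A, CDC25C and CCNB2 each lost their call when any 1 of 5, 6 and 7 libraries was left out. CDC25A had 676 and 784 in Lep, 554 and 434 in Int, 525, 541 and 579 in BrM and 754, 715 and 769.8 in Par cells. CCNB2 had 1782 and 1515 in Lep, 2057 and 2316 in Int, 1423, 1335 and 1450.0 in BrM and 1690.0, 1675 and 1613 in Par cells.

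Against BrM cells of PC9, 25 members were higher and 10 lower in Lep cells, where 33.9% of all genes were higher and 34.4% lower. At least 2-fold higher was MCM7, against 7.83% of all genes, and at least 2-fold lower was TYMS, against 10.8%. MCM7 was higher, at 1.09 ± 0.07 on the log2 scale (limma adjusted p = 3.5e-08). CCNB1 changed by 0.97 ± 0.06 on the log2 scale (limma adjusted p = 3.9e-08). For TYMS the log2 fold change was -1.28 ± 0.09 (limma adjusted p = 1.2e-07). BUB1B had a log2 fold change of -0.38 ± 0.07, with a limma adjusted p of 0.00053. With the correction 24 members were higher and 9 lower, and 10 changed sign. MCM7 then stood at 1.02, CCNB1 at 0.79, TYMS at -1.63 and BUB1B at -0.23. BUB1B, a spindle checkpoint kinase, had 1409.7 and 1210.3 in Lep, 1350.4 and 1384 in Int, 1784, 1655 and 1656 in BrM and 1824, 1896 and 1957 in Par cells. PCNA was higher by 0.37 as deposited and stood at -0.05 with the correction. MKI67 and E2F1 did not pass as deposited, and with the correction MKI67 was higher (0.703) and E2F1 lower (-0.252).

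In the wider pathway of PC9 Lep cells against Par cells, 3 of 51 replication genes rose and 26 fell, and 12 of 54 mitosis genes rose and 22 fell, where 32.1% of all genes rose and 32.2% fell. With the correction for length and GC content the counts were 6 and 27 of 51 replication genes, and 19 and 17 of 52 mitosis genes. CLSPN, the claspin that couples stalled forks to CHEK1, averaged 702 ± 104 in Lep and 1583 ± 131 in Par cells (SD). ORC1 averaged 971 ± 111 in Lep and 2111 ± 84.6 in Par cells (SD). Of 19 tested G1 cyclins, kinases and E2F factors 2 rose and 14 fell, and 2 and 10 with the correction. MYC averaged 2613 ± 183 in Lep and 5032 ± 77 in Par cells (SD). CDK6 averaged 1035 ± 81.9 in Lep and 1871 ± 102 in Par cells (SD), and it did not pass with the correction. Of 18 inhibitors and brakes 10 rose and 3 fell, and 7 and 4 with the correction. CDKN3 averaged 3094 ± 195 in Lep and 1618 ± 107 in Par cells (SD). CDKN2A (p16) averaged 5409 ± 181 in Int and 2455 ± 43.3 in Par cells (SD). CDKN1A averaged 1949.7 ± 136 in BrM and 781 ± 40.5 in Par cells (SD). With the correction the log2 fold changes in Lep against Par cells were -0.855 for CLSPN, -1.114 for ORC1, -1.150 for MYC and 0.571 for CDKN3. Against Par cells CDKN2A then stood at 0.501 in Int cells and CDKN1A at 1.248 in BrM cells.

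In MDA-MB-231 Lep cells, 0 members passed against Par cells, where 0.0199% of the 15106 genes tested rose and 0.0463% fell. At an unadjusted p under 0.05, 0 were higher and 10 lower, edgeR called 0 and DESeq2 called 1, and the median log2 fold change was -0.27. The 3 Par libraries differed widely. MKI67 had 32029.6 and 28121 in Lep, 36081 and 30718 in Int, 28447, 14810.2 and 17605 in BrM and 41658, 21817 and 15527 in Par cells. Its Par libraries spanned the values of all Lep and Int libraries, and so did those of TOP2A, which had 36187 and 24972 in Lep, 41257 and 38470.4 in Int, 22891, 13673 and 15337 in BrM and 48511, 24763 and 20159 in Par cells. Across genes within a library, the correlation of deviations with transcript length was 0.25 and 0.0037 for Lep, 0.48 and 0.46 for Int, -0.095, -0.50 and -0.47 for BrM and 0.50, -0.36 and -0.48 for Par libraries. The Par libraries of this model thus differed in sign.

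Int cells of MDA-MB-231 had 0 members higher and 8 lower than Par cells, where 5.37% of all genes were higher and 5.13% lower, with a median of -0.39. At an unadjusted p under 0.05, 0 were higher and 22 lower, and edgeR and DESeq2 called 7 and 20 members, all lower. At least 2-fold lower were CDC20, GINS2 and TK1, 3 members against 2.61% of all genes. CDC20 had 21171 and 22873 in Lep, 14294 and 11068 in Int, 29382, 30448 and 30872 in BrM and 23013, 31033 and 41454 in Par cells. In Int against Par cells its log2 fold change was -1.30 ± 0.23 (limma adjusted p = 0.019). GINS2, a subunit of the active helicase, had 2111 and 1435 in Lep, 1474 and 1334 in Int, 2065, 3535 and 3105 in BrM and 2317, 3379 and 3936 in Par cells. This gave a log2 fold change in Int against Par cells of -1.16 ± 0.30 (limma adjusted p = 0.043). For both genes the Int libraries were below all Par libraries, and for GINS2 the Lep and Int libraries overlapped. The other 5 that fell were CDT1 (-0.90), MAD2L1 (-0.73), CDC25A (-0.65), MCM5 (-0.65) and CENPA (-0.64). The count depended on single libraries: it was 0 without Int replicate 1, Int replicate 2 or Par replicate 2, and 26 without Par replicate 1 (4 higher and 22 lower). GINS2 lost its call when any 1 of 6 libraries was left out. With the correction for length and GC content 20 members fell, whereas the count was 0 with only the Int and Par libraries in the fit, 1 with no filter on low values and 1 with the replicate number as a block, and GINS2 lost its call in each of these 3.

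MKI67 and the remaining fixed members of MDA-MB-231 did not pass in any of the 5 comparisons in the main fit. Some passed against Par cells in alternatives. MKI67 rose in Int cells without Par replicate 1 (0.855), while the others that passed fell. E2F1 fell in Int cells with DESeq2 (-0.829), with the length and GC correction (-0.543) and without Par replicate 1 (-1.019). With DESeq2 PCNA also fell in Int cells (-0.575), and CCNE2 (-0.904) and CDK1 (-0.477) in BrM cells. With the length and GC correction CCND1 fell in Int cells (-0.491) and E2F1 in BrM cells (-0.538). PCNA had 9759.9 and 8091 in Lep, 8492 and 9023 in Int, 8803, 13075 and 11577 in BrM and 10829.6, 13821 and 14447 in Par cells, and its log2 fold changes against Par cells were -0.54 in Lep, -0.56 in Int and -0.23 in BrM cells. MCM2 had 7346 and 4856 in Lep, 6810.1 and 5689.6 in Int, 7253, 7637 and 7608 in BrM and 7688, 7668 and 8225 in Par cells. CCND1 had 36732 and 26775 in Lep, 32936 and 35005 in Int, 32934, 27426 and 30389.7 in BrM and 40425, 41199.9 and 41391 in Par cells, and its Par libraries were the highest. CCNE2 had 1933 and 1437 in Lep, 1628 and 1827 in Int, 1145, 935 and 925 in BrM and 2706, 1745 and 1185 in Par cells. CDK1 had 10841 and 8708 in Lep, 10863 and 10840.0 in Int, 8132, 8605 and 8541 in BrM and 11722, 11438 and 12121 in Par cells. E2F1 had 5295 and 5550.3 in Lep, 4053 and 4360.5 in Int, 5265, 6796 and 6268 in BrM and 5247, 7596 and 9556 in Par cells. All Lep libraries lay below all Par libraries for PCNA, MCM2, CCND1 and CDK1, and Lep and Par libraries overlapped for CCNE2 and E2F1. None of these differences passed in the main fit. The share of all genes with Lep and Par libraries so separated was not counted, so these genes are not set apart.

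BrM cells of MDA-MB-231 had 0 members past the test against Par cells, where 0.391% of all genes rose and 0.139% fell, with 0 higher and 8 lower before adjustment (p under 0.05), 0 calls in edgeR and 4 in DESeq2. Between Lep and Int cells 0 passed, where 0.0265% of all genes were higher and 0.132% lower, with 6 higher and 0 lower unadjusted and 0 calls in edgeR and DESeq2. Between Lep and BrM cells 0 passed, where 0.371% of all genes were higher and 0.563% lower, with 2 higher and 4 lower unadjusted and 0 calls in edgeR and DESeq2. In the wider pathway the Int cells had 7 of 51 replication genes lower and 0 higher than Par cells, where 5.13% of all genes were lower and 5.37% higher. With the length and GC correction 17 of 51 replication genes and 15 of 52 mitosis genes were lower and 0 higher. Of 20 G1 cyclins, kinases and E2F factors 4 were then lower and 0 higher, and of 15 inhibitors and brakes 2 were lower and 3 higher. CDK4, the kinase of cyclin D, averaged 5751 ± 562 in Int and 11709 ± 3123 in Par cells (SD). Without the correction Lep and BrM cells had 0 genes of the 4 wider lists past the test against Par cells. With it 1 of 52 mitosis genes was lower in BrM cells.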

How the data were processed

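The deposited tables hold a size-factor-normalized signal, read counts per gene divided by a factor per library, which per the labels and the submitters' processing notes the authors made with HTSeq 0.5.4 and DESeq2 after FastQC 0.11.3, on GRCh37 or GRCm38. No aligner is given in the sources used here. Whole reads were recovered to within 0.01 and used for library totals and count tests. The kit does not keep strand. Genes that reached 10 in 2 or more libraries were tested with limma 3.58.1 (R 4.3.3, trend) on log2(value + 1), with all libraries of a model in 1 fit and Benjamini-Hochberg adjustment over all genes tested. The script was tested on simulated data. Alternatives were edgeR 4.0.16, DESeq2 1.42.0, 2 groups only, quantile normalization, a pseudocount of 10, no filter, a replicate block, a length and GC correction (mgcv 1.9.3, human models) and leaving out each library. Same-numbered MDA-MB-231 BrM and Par libraries deviated together (correlations across genes of 0.231 to 0.5 in 3 of 3 pairs). So did Par replicate 3 with BrM replicate 2 (0.337) and Par replicate 2 with BrM replicate 3 (0.161). Pairs of a replicate 1 with another number ran from -0.435 to -0.289. The labels do not say what a number marks, and these values do not settle a pairing by number. The count in BrM against Par cells of MDA-MB-231 was 0 with and without the block. The members, lists and naming rule were chosen with earlier results of these data known. Named members were those with the 4 largest passing changes in each direction in Lep against Par cells, and the 2 largest in the other comparisons, among those whose libraries did not overlap, plus MKI67, PCNA, MCM2, CCND1, CCNE2, CDK1 and E2F1 in each model. Values are uncertain for members that overlap a gene on the other strand (CCNA2, CCNE2, CDC25C, CDK2, FOXM1, KIF20A, MCM2, MCM7, PLK1 and TYMS) or the same strand (CHEK1), or that have pseudogenes (UBE2C, PCNA, RRM2, AURKA, TYMS, BUB1, CCNB2, CDC20 and MKI67).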

Additional observations from a re-analysis of the deposited data

Results flagged for a closer look

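Of the 7 members described in every model, 6 passed in Lep against Par cells with every Lep library above every Par library in at least 1 model and passed with every Lep library below every Par library in another. Members not described in every model were left out of this count. Of all genes tested in Lep against Par cells, 40.1% rose and 41.2% fell in HCC1954, 32.1% and 32.2% in PC9, and 23.6% and 25.4% in LLC. The share of all genes with such opposite passes was not counted, so these 6 are not set apart from other genes. The difference between models was not tested, since the tables were normalized separately. Log2 fold changes in Lep against Par cells are given for each. MCM2 stood at -0.219 in HCC1954, -0.746 in PC9 and 0.870 in LLC. CCND1 stood at 0.854 in HCC1954, -0.293 in PC9 and -0.603 in LLC. CCNE2 stood at 0.825 in HCC1954, -0.806 in PC9 and 1.646 in LLC. E2F1 stood at 0.360 in HCC1954, -0.260 in PC9 and 0.999 in LLC. CDK1 stood at -0.287 in HCC1954, 0.260 in PC9 and 0.819 in LLC. MKI67 stood at -0.425 in PC9 and 0.862 in LLC, and its PC9 value turned to 0.305 with the correction for transcript length and GC content. With the same correction CCND1 (-0.101) and CDK1 (0.105) did not pass in PC9. E2F1 in PC9 no longer passed without Par replicate 1, Par replicate 3 or Lep replicate 2.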

How the results depend on the processing

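Over 20 counts of members passing, 341 of 375 alternatives stayed within 1.5 times the main count in the same direction. The others were in MDA-MB-231, PC9 Lep against Int, and LLC Int against Par and Lep against Int. In MDA-MB-231 Int against Par cells (8 members) the count was 0 with 2 groups only, 20 with DESeq2, 20 with the length and GC correction and 1 with no filter, and leaving out 1 library gave 0 to 26. Lep against Par cells had 1 member with DESeq2. BrM against Par cells had 4 with DESeq2 and 1 with the length and GC correction, and leaving out 1 library gave 0 to 1 there and in Lep against BrM cells (1 without Par replicate 3 and without Par replicate 1). In PC9 Lep against Int cells (8 members) the count was 0 with 2 groups only and 4 with no filter, and 0 to 19 with 1 library left out. In LLC, leaving out 1 library gave 2 to 9 in Int against Par cells (6 members), with more higher than lower among the 3 left without Int replicate 1, and 29 to 46 in Lep against Int cells (46 members). The cause was not tested. Outside MDA-MB-231 BrM against Par cells, where the block changed no call, same-numbered libraries of no 2 compared groups with 3 pairs all deviated together, and the numbers were not taken to pair the libraries. With the replicate number as a block, the count was 1 in MDA-MB-231 Int against Par cells (16 with the length and GC correction) and 5 in PC9 Lep against Int cells, and stayed within 1.5 times in the other comparisons. Among results picked by the naming rule that passed in the main fit, signs turned in these cases. Sign changes of other results are not listed here. With quantile normalization MKI67 was -0.037 in HCC1954 Int against Par cells and CCND1 -0.053 in Lep against Int cells. With the length and GC correction, CCND1 was -0.104 in HCC1954 Lep against Int cells, MKI67 was 0.305 in PC9 Lep against Par and 0.345 in Int against Par cells, and PCNA was -0.050 in PC9 Lep against BrM cells. With block and correction together these were -0.107, 0.322, 0.362 and -0.031, and MCM2 was 0.025 in HCC1954 Int against Par cells. The length and GC correction was not run for LLC, for which no transcript lengths were used here.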
